A study of Drosophila melanogaster with 40 samples.

Results

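The 150 transcripts described here were those whose mRNA lay most toward the bottom of the polysome gradient in wild-type embryos, among transcripts of similar overall polysome association. They were taken from a table of 6524 transcripts measured in 4 pools of 10 *Drosophila* gradients, on 40 arrays. A total of 4893 transcripts had a mean level over all arrays at or above the 25th percentile. Of these, 2202 had a wild-type translation index (TI) with a percentile rank between 0.40 and 0.85, and they are called the candidates. The TI averages the log2 levels of pools 3 and 4 and subtracts that of pool 1. The members were the 150 candidates with the highest mean of log2 pool 4 minus log2 pool 3 over the 3 wild-type gradients. That difference is called the skew here, so that a positive skew means more signal in pool 4 than in pool 3. The 150 candidates at the opposite end are called the lighter-skewed transcripts and serve as a contrast.

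All embryos were collected 0 to 2 h after egg laying. Whole embryos were lysed, so a difference in 1 part of the embryo cannot be told apart from one throughout it. There were 3 gradients of W1118 Wild Type embryos and 3 of embryos from mothers homozygous for the smaug1 allele, both lysed in a buffer that held cycloheximide and not treated further. The other 4 gradients were all of smaug1 embryos too, lysed in a different, puromycin lysis buffer. Those lysates were divided, given either puromycin or cycloheximide, kept on ice and then warmed before loading, which gave 2 puromycin and 2 cycloheximide gradients. There was no drug-treated wild-type gradient, so the effect of puromycin on the members was measured only without Smaug. Pool 1 was the top 4 mL of the gradient, pool 2 the following 2 mL, pool 3 the following 3 mL, and pool 4 the last 3 mL with the pellet. Since the members were selected on wild-type pools 1, 3 and 4, their skew and TI in wild type, and any contrast of these with wild type, are given as descriptions without a test.

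An mRNA sediments faster the more ribosomes it carries, so a polysome gradient sorts mRNAs by ribosome load as well as separating translated from untranslated copies. A longer coding sequence has room for more ribosomes, and large non-translating ribonucleoprotein particles can also reach the lower part of a gradient. Cycloheximide holds elongating ribosomes on the mRNA, whereas puromycin ends the growing peptide early and lets ribosomes go, which is why the pair of drugs is used to ask whether sedimentation depends on translation. Smaug is an RNA-binding protein that represses translation of maternal mRNAs and promotes their decay in the early fly embryo. The 2 lower pools enter the TI with equal weight on the log2 scale, so equal and opposite log2 changes in them cancel in it.

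The members have transcript identifiers without gene names in the table used here. The gene table held 8 of the 6524 identifiers as a synonym and none of the 150 members. None of 10 early-embryo marker genes could be matched to a row, so the tissue was not checked against markers here. The results are therefore given for the members as a group and for 4 single identifiers, without a function.

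Arrays differed in level and in spread. Array medians ran from 9.98 (puromycin replicate 1, pool 4) to 14.1 on the log2 scale, and the SD over transcripts from 1.06 to 2.03 (*smaug* replicate 2, pool 3). Replicate 2 of *smaug* stood apart in the skew. Across all transcripts its Pearson's r with the other 7 untreated or cycloheximide gradients was between -0.07 and 0.46, while the 21 pairs among those 7 gave 0.22 to 0.85. These values are across transcripts of one array set, which are not independent replicates. Because every gradient also had its own median skew over all transcripts, the skew is given both as deposited and centred on that median.

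In wild type, the values that chose the members were as follows. The median skew of the members was 1.19, 3.12 and 1.44 in replicates 1, 2 and 3, where the median over all transcripts was 0.07, 0.84 and -0.02. Replicate 2 thus had the widest skew, with an SD over all transcripts of 1.45, against 0.59 and 0.77 in replicates 1 and 3, and carried the most weight in the mean. The highest-ranked member had a skew of 2.23, 4.75 and 2.52 in the 3 gradients, a mean of 3.16. The last member inside the limit had a mean of 1.578 and the first transcript outside it 1.575, so the lower edge of the group is not a gap in the data. When the members were chosen again from only 2 wild-type gradients, 104, 92 and 115 of the 150 were kept on leaving out replicates 1, 2 and 3. In the gradient that had been left out of the choice, the transcripts so chosen had a median centred skew of 0.96, 1.72 and 1.34, and 142, 149 and 150 of 150 lay above the gradient's median. The share of all candidates above that median was 48.9%, 59.8% and 51.4%.

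The members stood out in pool 4 in each wild-type gradient, and in pool 3 they were on either side of the array median. Their median level relative to the array median in wild type was 1.42, 1.80 and 1.31 (log2) in pool 4 for replicates 1 to 3, and 0.31, -0.53 and -0.07 in pool 3. In pools 1 and 2 they sat close to the array median, with group means of 0.03 ± 0.13 and -0.02 ± 0.29 (SD, n = 3). Each transcript's share of its own signal was taken on the linear scale over the 4 pools. The median share of a set was then averaged over gradients. In pool 4 it was 51.5% ± 9.37 (SD, n = 3) for the members and 25.6% ± 3.36 for all transcripts. The lighter-skewed transcripts had 17.9% ± 1.57 in pool 4 and 34.4% ± 2.23 in pool 3. The members were not extreme in abundance: the percentile of their mean level among all transcripts ran from 27.8 to 99.1 with a median of 63.9, and the median candidate was at 67.8. Their wild-type TI was 0.66, -0.31 and 0.43 (medians in replicates 1 to 3), against 0.60, -0.46 and 0.02 for the candidates.

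**Figure D1:**
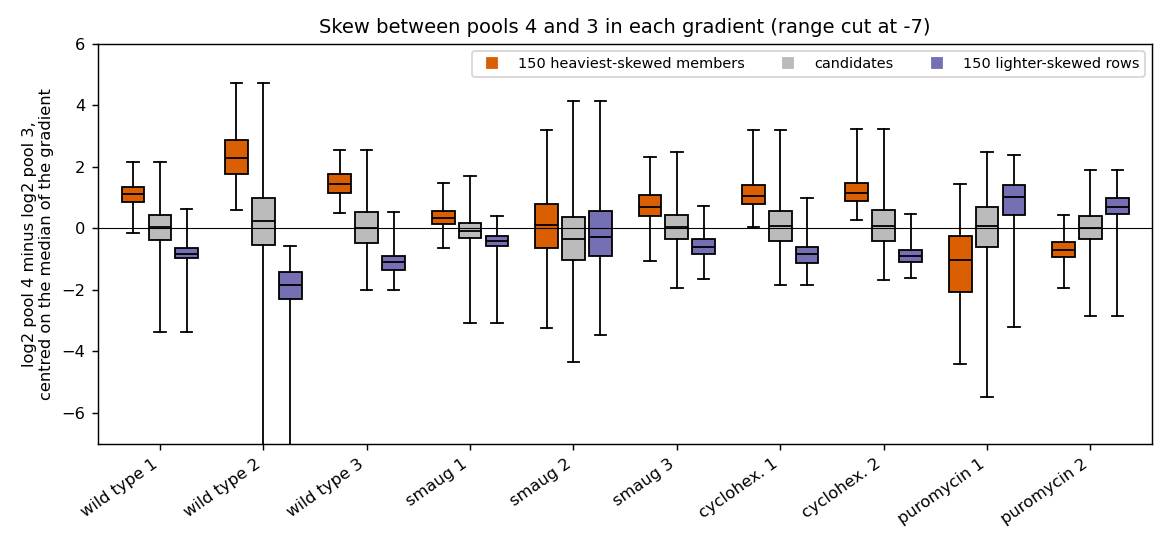
Centred skew (log2 pool 4 minus log2 pool 3, minus the median of the gradient over all transcripts; vertical axis, log2) in each of the 10 gradients for the 150 members (orange), the 2202 candidates (grey) and the 150 lighter-skewed transcripts (purple). Boxes give the quartiles and median and whiskers the full range, which runs past the lower end of the axis in wild-type replicate 2; the members' medians are 1.06 and 1.15 with cycloheximide and -1.02 and -0.69 with puromycin.

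The first comparison asked whether the bottom-heavy distribution was seen again in gradients whose skew and TI had no part in the choice, although their levels entered the filter on the mean over all arrays. In the 2 cycloheximide gradients it was, without exception in direction. The members' median skew was 1.38 and 1.44 as deposited, with lowest members at 0.37 and 0.56 and highest at 3.52 and 3.52. The median over all transcripts was 0.32 and 0.28. All 150 members lay above the median of all transcripts in both gradients, whereas 41.9% of all transcripts and 47.9% of the candidates did. Of the lighter-skewed transcripts, 1 did. The median fitted centred skew of the members was 1.08 (log2, 2 gradients), with standard errors between 0.26 and 0.94.

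Single members seldom passed the test over all transcripts in these gradients. With limma and Benjamini-Hochberg adjustment over 6524 transcripts, 3 of 150 members had a centred skew above 0 with cycloheximide (background 0.245% of all transcripts). At an unadjusted p under 0.05, 110 did (background 12.6%). The 3 members were at ranks 5, 29 and 46 of the wild-type order. Without cycloheximide replicate 1 or replicate 2 the adjusted calls did not hold, for the members or any other transcript. Such a fit leaves 1 gradient assumed to vary like the others. The adjusted count was 143 when the 2 cycloheximide gradients were fitted by themselves, where 26.1% of all transcripts were also higher. Among members the wild-type mean and the cycloheximide mean of the centred skew had a Pearson's r of 0.43 across the 150 transcripts, and 0.82 across all 2202 candidates. These are descriptions across transcripts that share arrays, and the range of the first was narrowed by the choice of members.

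Pool 4 again had the members' largest median share with cycloheximide, 47.1% ± 6.19 (SD, n = 2) against 28.2% ± 5.89 for all transcripts. The members' median level in pool 4 was 1.10 and 1.07 above the array median. In both gradients 135 of 150 members were above it (background 46.8%, candidates 70.1%). In pool 3 they were at 0.03 and -0.17. The lighter-skewed transcripts were at -0.19 and -0.14 in pool 4 and at 0.73 and 0.83 in pool 3. The profile over 4 pools in the smaug1 lysates held with cycloheximide thus had the same order of pools 3 and 4 as that of untreated wild-type embryos.

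**Figure D2:**
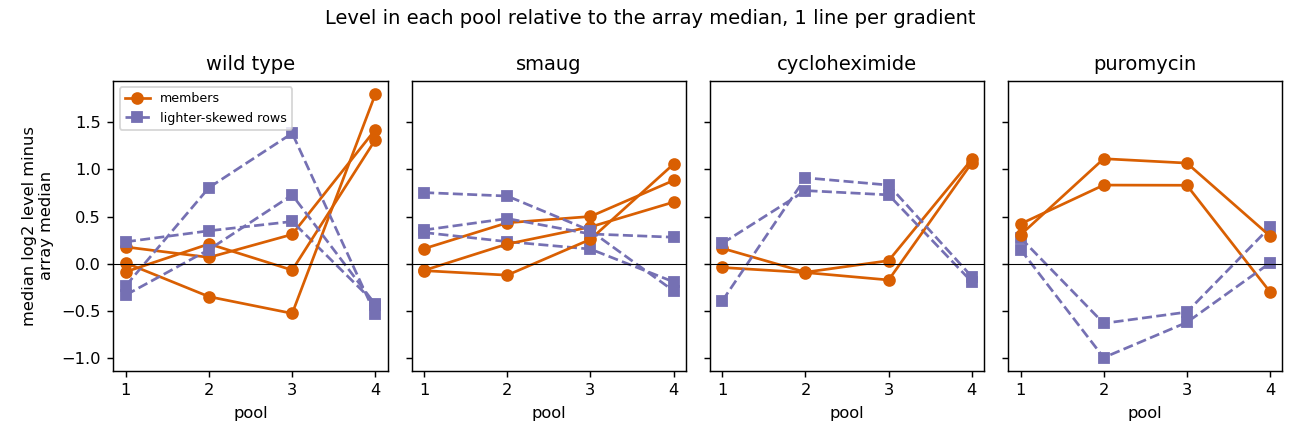
Median log2 level of the members (orange, solid) and of the lighter-skewed transcripts (purple, dashed) relative to the median of the array (vertical axis) in pools 1 to 4 (horizontal axis), with 1 line per gradient and 1 panel per group. In wild type and with cycloheximide the members rise from pool 3 to pool 4 by over 1 unit, and with puromycin they peak in pools 2 and 3.

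In the untreated *smaug*-mutant gradients the skew of the members was smaller. Their median skew as deposited was -0.04, -1.21 and 0.26 in replicates 1, 2 and 3, where all transcripts had -0.39, -1.30 and -0.43. Centred, the member medians were 0.35, 0.10 and 0.68, so that they were on the side of pool 4 relative to other transcripts in each gradient, although as deposited the first 2 were below 0. Replicate 2 was the lowest. It had 83 of 150 members above the median of all transcripts, against 126 in replicate 1 and 135 in replicate 3, and a range among members from -3.25 to 3.20 (centred). Over all 3 gradients 78 members were above the median each time (background 24.7%), and 121 were in replicates 1 and 3 (background 37.3%). Only 9 were below it each time (background 24.6%).

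No member passed the test for a centred skew different from 0 in *smaug* mutants (limma, background 0.092%, which is 6 transcripts). At an unadjusted p under 0.05, 49 members were higher (background 11.1%) and 3 lower (background 9.46%). The median fitted value was 0.41, and it was 0.55 without *smaug* replicate 2 and 0.24 without replicate 3. With all arrays rescaled to 1 spread, 18 members passed, all of them higher, as did 2.65% of all transcripts. The members' median share was 28.6% ± 14.0 (SD, n = 3) in pool 4 and 33.0% ± 5.06 in pool 3. For all transcripts it was 20.8% ± 8.75 and 33.2% ± 6.15. In pool 4, 104 members were above the array median in all 3 gradients (background 34.3%, candidates 51.9%). By gradient the members' median share in pool 4 was 25.7%, 16.2% and 43.8%. On the same arrays that of all transcripts was 19.9%, 12.6% and 30.0%, so the members' share was higher in each gradient.

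As a description only, since wild-type skew chose the members, the *smaug* gradients were below the wild-type ones. The median member was lower in *smaug* by 2.24 as deposited and by 1.24 centred (log2, mean of 3 gradients minus mean of 3), where all transcripts had a median of -1.0 as deposited. In 135 members every wild-type gradient had a higher skew than every *smaug* gradient (background 46.6%), and in 96 this held after centring (background 14.5%). Transcripts taken for high values in 1 set of gradients tend to be lower in any other set, and that part cannot be told apart here from a difference of genotype. The cycloheximide gradients were also of smaug1 embryos. Averaged over gradients, the centred member median was 1.10 there, 0.38 in untreated *smaug* and 1.62 in wild type. The cycloheximide lysates had another buffer and were warmed, and why the untreated *smaug* gradients were lower was not tested. The TI, whose wild-type values were also used, had a member median of 0.70 for *smaug* minus wild type and 0.65 over all transcripts.

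Pool 2 took no part in the wild-type choice by skew or TI, and its level was compared between genotypes. The members' median level relative to the array median in pool 2 was 0.07, -0.35 and 0.21 in wild type and 0.43, 0.21 and -0.12 in *smaug* mutants. The groups overlapped. None of the 150 members differed in pool 2 (limma, background 0.0613%, 4 transcripts, all lower). Without adjustment 1 member was above (background 1.04%) and 1 below (background 0.72%) at p under 0.05. The median difference was 0.28 on the log2 scale as deposited, and it became -0.21 without wild-type replicate 2 and 0.86 without wild-type replicate 3. The standard error was 0.72 for each member, so a difference of the size of the median was not detectable with 3 gradients a group.

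**Figure D3:**
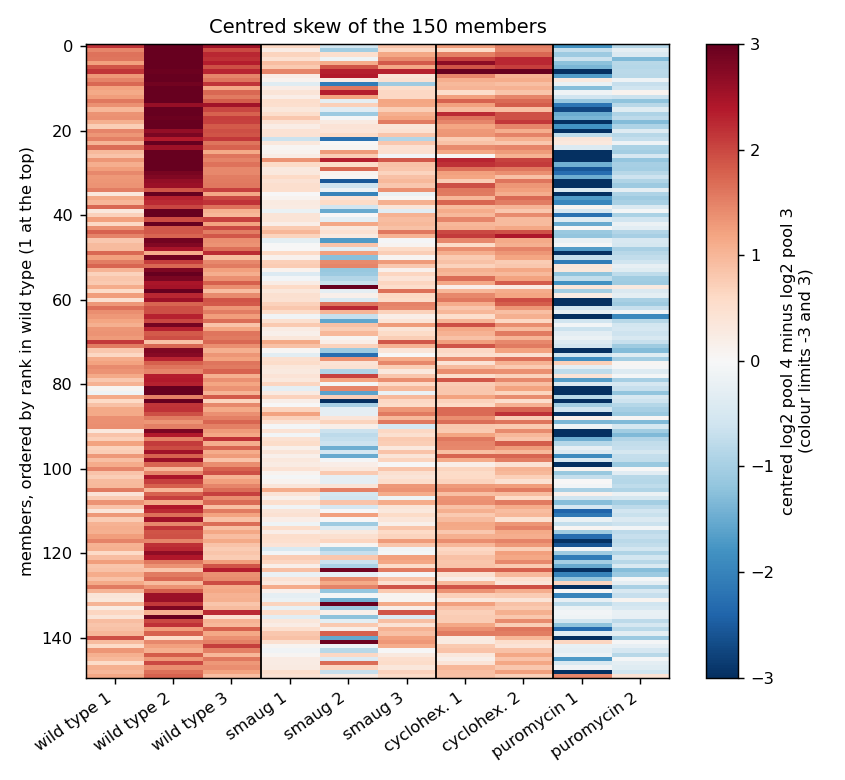
Centred skew of each of the 150 members (rows, in the order of their mean wild-type skew) in the 10 gradients (columns), from blue at -3 or below to red at 3 or above (log2). All members are red in both cycloheximide columns, while 130 of them are blue in both puromycin columns.

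With puromycin the members lay on the opposite side. Their median skew was -2.49 and -1.65 in the 2 puromycin gradients, where all transcripts had -1.48 and -0.95, and no member was above 0 in either gradient. Centred, the medians were -1.02 and -0.69. Relative to other transcripts the members were thus on the light side of pools 3 and 4, and 130 of 150 were below the median of all transcripts in both gradients (background 38.4%). The lighter-skewed transcripts had medians of 1.02 and 0.70, and 123 of them were above the median in both gradients. As a test of single transcripts against 0, 3 members passed with a lower centred skew (limma, background 2.31%), at ranks 65, 100 and 126, and 0 with a higher one (background 0.981%), while 78 were lower at an unadjusted p under 0.05 (background 18.3%). The adjusted calls did not hold without puromycin replicate 1, for the members or any other transcript, and the members' median was then -0.69. Without puromycin replicate 2 the members' median was -1.02.

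The direct comparison of the drugs gave more calls. The skew as deposited was lower with puromycin than with cycloheximide in 143 of 150 members (limma, adjusted over all transcripts, background 39%), and higher in 0 (background 0.199%). The median change was -3.48 (log2), with a range from -6.85 to -1.36 and a median standard error of 0.71, and the median over all transcripts was -1.58. In all 150 members both cycloheximide gradients were above both puromycin gradients (background 81.6%). Among the lighter-skewed transcripts 3 were lower and 1 higher, with a median of 0.17. Thus the fall in the members was larger than the fall shared by all transcripts, and when each gradient was centred the members' median change was -1.97, with 85 lower (background 10.7%) and 0 higher (background 7.42%). The centred values of 145 members did not overlap between the drugs (background 38.4%). Leaving out a library changed the count. Without puromycin replicate 1, 65 members were lower (9.63% of all transcripts), and without replicate 2, 133 were (40.1%). Without cycloheximide replicate 1 or replicate 2 the adjusted calls did not hold, for the members or any other transcript, and the members' medians were -3.56 and -3.50.

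**Figure D4:**
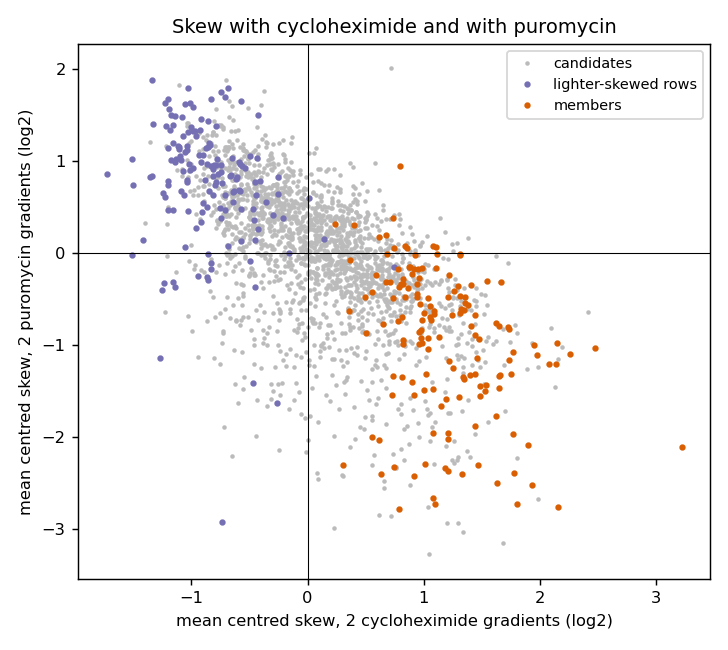
Mean centred skew of each transcript over the 2 cycloheximide gradients (horizontal axis, log2) and over the 2 puromycin gradients (vertical axis, log2) for the members (orange), the lighter-skewed transcripts (purple) and the candidates (grey). The members all lie right of 0, and 139 of the 150 lie below 0.

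As deposited, the change was larger in pool 4 than in pool 3, whereas centred on the array medians it was -1.08 in pool 4 and 1.04 in pool 3. The members' level in pool 4 was lower with puromycin by a median of 3.41 (log2, as deposited), and 149 of 150 members passed (limma, background 82.3%), since most transcripts fell. The median over all transcripts was -2.52. The remaining member had an adjusted p of 0.0514. Centred, 0 members passed, with 71 lower at an unadjusted p under 0.05 (17.7% of all transcripts). The pool 4 array of puromycin replicate 1 had the lowest median of all arrays, and the members spread widely on it: their levels ran down to 5.85, near the lowest 1% of that array at 5.61, while in replicate 2 the lowest was 9.55. The members' median relative to the array median in pool 4 was -0.30 and 0.29 in these replicates, on opposite sides of 0. In both replicates 62 of 150 members were above the array median (background 39.7%, candidates 54.6%), a smaller share than among the candidates. The members' median share in pool 4 with puromycin was 3.33% ± 0.76 (SD, n = 2), and that of all transcripts was 4.54% ± 0.13.

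In pool 3 the members changed in both directions between the drugs, from -1.36 to 1.92 (log2, puromycin minus cycloheximide, as deposited). The median change of their pool 3 level with puromycin was 0.16 as deposited, against -0.80 over all transcripts and -2.28 for the lighter-skewed transcripts. Of 150 members 3 were higher (limma, background 0.337%) and 0 lower (background 20.8%), while 113 of the lighter-skewed transcripts were lower. The sign of the members' median was not stable: it was -0.09 without puromycin replicate 2 and -0.04 without cycloheximide replicate 2, and 1.04 when each array was centred, with 33 members higher and 0 lower, beside 4.28% and 8.45% of all transcripts. The members' calls did not hold in any of the 4 fits that left out 1 gradient, while some other transcripts still passed in each. With the replicate block, which pairs same-numbered drug gradients, taken to be from 1 lysate, 39 members passed. Of these 26 were higher and 13 lower, where 5.17% of all transcripts were higher and 55.6% lower.

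With puromycin the members' largest median shares were in pools 1 and 2. In pool 1 the members' median share was 48.6% ± 7.11 (SD, n = 2) with puromycin and 22.2% ± 10.3 with cycloheximide. In pool 2 it was 34.9% ± 8.64 and 12.2% ± 0.41. For all transcripts the shares with puromycin were 57.7% ± 2.46 in pool 1 and 26.3% ± 5.10 in pool 2, so the members had relatively less in pool 1 and more in pool 2, as they also had in pool 3 (13.3% ± 2.35 against 10.9% ± 2.38). On the same arrays, replicates 1 and 2, the members' share in pool 2 was 28.8% and 41.0% against 22.7% and 29.9%, and in pool 3 14.9% and 11.6% against 12.6% and 9.19%. Counted by member, 134 were above the array median in pool 2 in both puromycin gradients (background 45.7%) and 139 in pool 3 (background 45.9%). Of the candidates, which had passed the same level filter, 66.7% were in pool 2 and 62.0% in pool 3. In pool 2 with cycloheximide 55 members were (background 44.7%, candidates 59.7%). The lighter-skewed transcripts had the opposite arrangement, with 71.2% ± 1.21 in pool 1 and 15.8% ± 2.17 in pool 2.

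The TI fell with puromycin about as much in the members as elsewhere. The members' median TI was 1.06 and -0.23 with cycloheximide and -3.11 and -2.75 with puromycin, and the groups of medians did not overlap. The median change was -3.31 in the members, -3.0 over all transcripts and -3.51 in the candidates. Of the members 93 passed (62%, limma, background 52.6%), all lower, as did 69.5% of the candidates. With the replicate block 147 members were lower, beside 85.6% of all transcripts. The count was 9 without puromycin replicate 1, 32 without puromycin replicate 2, 13 without cycloheximide replicate 1 and 88 without cycloheximide replicate 2, where 16.9%, 18.5%, 11.4% and 47.8% of all transcripts were lower. When gradients were centred, the members' median change was -0.28 and 4 were lower (4.98% of all transcripts). Beside all transcripts, the members' median change was thus larger by far in the balance of pool 4 to pool 3 than in the TI. The members had been chosen for an extreme skew within a middle range of TI in wild type. Across the candidates the wild-type and cycloheximide means of the centred skew went together (Pearson's r of 0.82). How much of this contrast follows from the choice was not tested.

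The single members are given by identifier. The first 2 had the largest fall of the skew with puromycin among those that passed, and the other 2 were picked after their values were seen, as members that passed both in cycloheximide gradients and in pool 3. FBtr0073232, rank 7, had a skew of 2.21, 3.77 and 2.27 in wild type and of 1.08, 1.03 and 1.88 in *smaug* mutants. It was 3.52 in both cycloheximide gradients and -4.88 and -1.77 in the puromycin gradients. This was the member with the highest skew with cycloheximide, and no puromycin value came near the other groups. The change with puromycin was -6.85 ± 0.92 (limma standard error) with an adjusted p of 0.0055. It was also higher in pool 3, by 1.92 ± 0.61 (adjusted p = 0.026), where its levels were 10.73 and 10.46 with cycloheximide and 12.12 and 12.91 with puromycin.

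FBtr0073601, rank 28, had a skew of 1.39, 3.86 and 1.47 in wild type and of 0.96, 1.02 and 1.44 in *smaug* mutants. With cycloheximide it was 2.60 and 2.31 and with puromycin -5.85 and -2.12. The change was -6.44 ± 1.04 (limma standard error, adjusted p = 0.00715). Its pool 4 level in puromycin replicate 1 was 5.99, close to the bottom of that array, and 10.36 in replicate 2, so the size of the fall differed between the gradients while both were below every other gradient. For both transcripts the adjusted p (limma) was between 0.0711 and 0.0735 without either cycloheximide replicate, and the change was -5.29 and -4.57 without puromycin replicate 1.

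FBtr0091528, rank 5, had a skew of 1.29, 4.80 and 2.33 in wild type, of 0.53, -0.20 and 1.42 in *smaug* mutants, of 3.01 and 2.54 with cycloheximide and of -2.71 and -1.80 with puromycin. Its centred skew with cycloheximide was 2.47 ± 0.32 (limma, adjusted p = 0.0289), and its pool 3 level was higher with puromycin by 1.87 ± 0.62 (adjusted p = 0.0297). FBtr0082513, rank 46, had 1.56, 2.59 and 1.84 in wild type, 0.28, -1.03 and 0.62 in *smaug* mutants, 2.42 and 2.70 with cycloheximide and -2.67 and -1.95 with puromycin. Its centred skew with cycloheximide was 2.26 ± 0.29 (adjusted p = 0.0289), and its pool 3 level was higher by 1.79 ± 0.62 (adjusted p = 0.0389). In both transcripts replicate 2 of *smaug* was the lowest untreated gradient. The calls of this pair with cycloheximide were lost in 5 of 9 alternatives, among them both that left out a cycloheximide gradient.

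**Figure D5:**
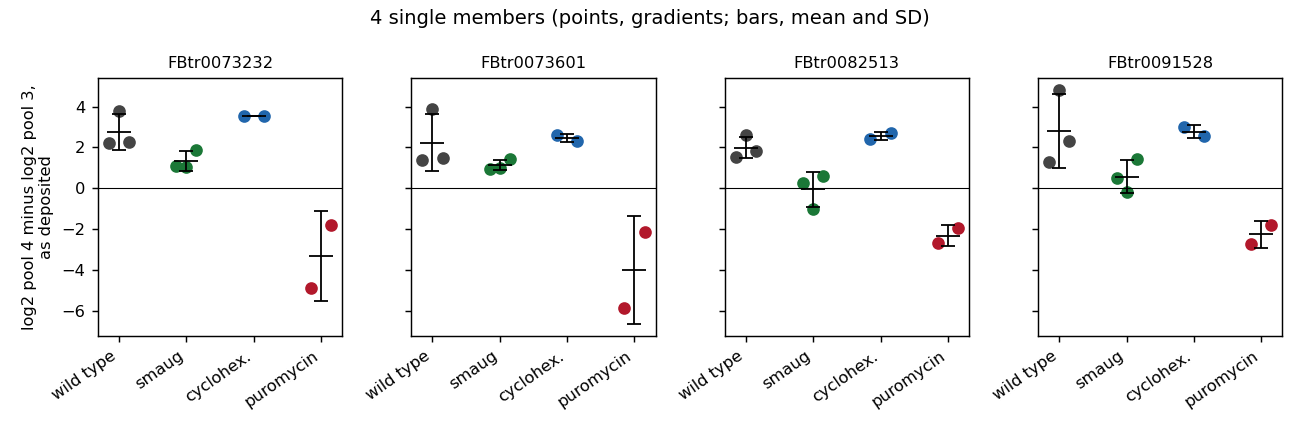
Skew as deposited (log2 pool 4 minus log2 pool 3, vertical axis) of 4 single members in each gradient (points), with the mean and SD of each group (bars; n = 3 for wild type and *smaug*, n = 2 for each drug). In all 4 panels both puromycin gradients lie below 0 and below all 8 others.

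The members did not fall with puromycin to the same extent, and the quartiles of their change from cycloheximide were -4.47 and -2.84 (as deposited). The skew itself also differed in spread between the puromycin gradients. Its quartiles among members were -2.07 and -0.25 (centred) in replicate 1, against -0.92 and -0.43 in replicate 2. Members with more skew with cycloheximide tended to be lower with puromycin, with a Pearson's r of -0.35 across the 150 members and -0.62 across the candidates. The same figure against the wild-type mean was -0.13 and -0.57. The skew in *smaug* mutants went with that in cycloheximide gradients at 0.38 among members and with the wild-type mean at 0.12. The points of these correlations share arrays, spike-in scaling and probes, and no test was made of them. Dyes were mixed in each group, with Cy3 and Cy5 once each for either drug, 1 Cy3 gradient in wild type and 1 Cy5 gradient in *smaug*. With the dye as a covariate 140 members were lower in the skew between drugs (35.6% of all transcripts), and 0 passed in the cycloheximide and in the puromycin gradients alone.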

How the data were processed

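Levels were measured on custom NimbleGen arrays, 1 array per pool. Per the methods, the authors normalised the arrays by the RMA quantile step and then applied to each a linear transformation, with slope and offset, set by *Arabidopsis* spike-in RNA that each pool had received. The deposited values are on a log2 scale (the base is taken from RMA), and an error in the spike-in fit of 1 array moves all its rows. Background signals were not used here. The number of arrays limits the precision.

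Groups came from the labels. The labels call replicates biological, but nothing says which gradients shared a collection. The 150 members, the lists and the tests were chosen with earlier results of these data known. Skew and TI were computed per gradient, and centring subtracted the gradient's (for pools, the array's) median over 6524 rows. Tests used limma 3.58.1 (lmFit, eBayes) in R 4.3.3, in a group-means model of the 7 gradients outside wild type (pool 2 between genotypes in 6), with Benjamini-Hochberg adjustment over all rows and a threshold of 0.05. The methods' own test, Significance Analysis of Microarrays, addressed the TI between genotypes and was not used here. The methods divided each drug lysate, and same-numbered drug gradients were taken as pairs. The deviations of such pairs correlated at 0.08 for the skew, 0.46 for the TI, 0.05 for pool 3 and -0.02 for pool 4. Named rows were all members with a gene name (there were none) and, by identifier, up to 2 that passed as higher in both *smaug* and cycloheximide gradients (there were none) and the 2 with the largest fall with puromycin. Scripts were tested on simulated data. No sequence or transcript length was used here, and gene names came from RefSeq's gene table.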

Additional observations from a re-analysis of the deposited data

Results flagged for a closer look

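The skew of the members differed in direction between the drugs. It was above the median of all transcripts in both cycloheximide gradients for all 150 members and below it in both puromycin gradients for 130. The difference itself was tested, and 143 members were lower with puromycin (limma, background 39% of all transcripts). Beyond the remarks above on *smaug* replicate 2 and puromycin replicate 1, groups of 2 or 3 gradients were not searched for single outlying samples.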

How the results depend on the processing

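The counts are of the 150 members that passed, with the share of all transcripts tested that passed in the same fit in brackets. With values as deposited in place of centred ones, 0 passed in cycloheximide gradients (0%) and 132 in puromycin gradients (48.6%). Centring instead gave 85 for the skew between drugs (18.1%), 4 for the TI (6.18%), 0 for pool 4 (0.092%) and 33 for pool 3 (12.7%). With the groups of the comparison alone, counts were 143 for cycloheximide (50.8%), 0 for puromycin (0%), 141 for the TI (80.3%) and 43 for pool 3 (63.3%). In that pool 3 count 28 members were higher and 15 lower, where 5.63% of all transcripts were higher and 57.7% lower. Without the lowest 25% of transcripts counts were 20 (2.06%) and 0 (0%) in cycloheximide and puromycin gradients, with limma's trend and robust options 0 (0%) and 15 (4.78%), and with dye as a covariate 0 (0%) and 0 (0.368%). Arrays rescaled to 1 spread gave 18 for *smaug* (3.57%), 71 for cycloheximide (11.2%), 79 for puromycin (24%) and 12 for pool 3 (33.1%). Members chosen again on rescaled arrays, an alternative added after seeing the data, gave 20, 74, 84 and 15 in the same fits. With the replicate block, fitted on the groups of the comparison alone, 146 passed for the skew between drugs (40%), 147 for the TI (85.6%), 150 for pool 4 (82.5%) and 39 for pool 3 (60.8%). Genotype numbers were not taken as pairs. The only tested genotype comparison was of pool 2, where the correlations of same-numbered deviations were 0.65, 0.18 and -0.10, although in pool 3 they were 0.57, 0.30 and 0.48 and in pool 4 0.63, 0.45 and 0.26. The block gave 0 members in pool 2 (0%).

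Leaving out 1 gradient at a time gave 0 members each time in *smaug* gradients, cycloheximide gradients, pool 3 and pool 2, 0 to 45 in puromycin gradients (0% to 17.2%), 0 to 133 for the skew between drugs (0% to 40.4%), 9 to 88 for the TI (11.4% to 47.8%), and 110 to 148 for pool 4 (35% to 76.4%). The members' median change of the skew between drugs stayed between -3.95 and -1.97 in all 12 alternatives. By the rule itself, 133 members were kept with rescaled arrays, 106 with the median in place of the mean and 101 with a filter at the 50th percentile. With 2 gradients a drug and 3 a genotype, a fit without 1 gradient of a drug takes that drug's spread from the other groups.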
